A study of Mus musculus with 6 samples.

Results

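The 50 genes described here encode the subunits, activators and dedicated assembly chaperones of the proteasome, the protease complex that degrades ubiquitin-tagged proteins. They were chosen by name, as the genes with a single symbol in the array annotation that starts with Psma to Psmg followed by a digit, out of 19938 genes measured. Of the 50, 5 are interferon-inducible: the catalytic subunits Psmb8, Psmb9 and Psmb10, which define the immunoproteasome, and Psme1 and Psme2, which form the PA28 activator. The other 45 are the constitutive core and regulatory subunits, other activators, an inhibitor and assembly chaperones, and include Psmc3ip and Psme3ip1, which share the symbol pattern but are neither subunits nor chaperones of the complex. The rule itself uses names and no measured value, and the family was chosen with earlier results of these data known.

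The skin samples were taken from male mice aged 5 to 6 weeks of the BALB/c strain, which is inbred and albino; the labels name no transgene or gene deletion. The groups were intact skin, wounds taken on day 1 and wounds taken on day 4, with 2 arrays each. A wounded mouse carried 2 full-thickness punch wounds of 4 mm, and an 8 mm biopsy took the wound with the skin around it, which put 25% of the sampled area inside the wound. Transcript levels were measured on an Affymetrix mouse gene array and are given as log2 intensity, on which a difference of 1 is a doubling. The labels call the replicates biological and do not say whether an array held RNA of a single mouse or of a pool, so n counts arrays and p-values measure the spread between these samples.

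The core particle of the proteasome is a barrel of stacked rings of alpha and beta subunits. Of the beta subunits, Psmb5, Psmb6 and Psmb7 carry the active sites that cut after hydrophobic, acidic and basic residues. Interferon gamma induces Psmb8, Psmb9 and Psmb10, which take the places of Psmb5, Psmb6 and Psmb7 in newly built particles, and such immunoproteasomes yield more peptides that suit the groove of class I major histocompatibility molecules. Immune cells express these subunits without further stimulation, and other cells of the skin, keratinocytes and fibroblasts among them, do so after exposure to interferon. The regulatory particle, made of the Psmc ATPases and the Psmd non-ATPase subunits, caps the barrel, binds ubiquitin chains, and unfolds the substrate and feeds it in, while PA28 opens the barrel without ATP and without ubiquitin.

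The promoters of inducible and constitutive catalytic subunits were set side by side because the inducible genes rose in the wounds and their counterparts did not pass the test, as given further on. The sequences are the 250 bases before the annotated start in RefSeq's annotation of GRCm38.p6, written 5′ to 3′ on the gene's own strand. Psmb8 lies at chr17:34197945-34198194 on the plus strand, where the capitals mark a match to the GAS motif, the DNA element of STAT dimers. Psmb9 lies at chr17:34187331-34187580 on the minus strand, where the capitals mark an inverted CCAAT box, the element of NF-Y. Psmb5, at chr14:54617996-54618245 on the minus strand, and Psmb6, at chr11:70525107-70525356 on the plus strand, have in capitals the core of the antioxidant response element, which Nfe2l1 and Nfe2l2 bind. Other motif matches in these stretches are left in lower case. Of the third pair, Psmb10 is not printed because its window held none of the 5 motifs searched. No match to them, the antioxidant response core included, was found for Psmb7, which is not printed either.
Psmb8: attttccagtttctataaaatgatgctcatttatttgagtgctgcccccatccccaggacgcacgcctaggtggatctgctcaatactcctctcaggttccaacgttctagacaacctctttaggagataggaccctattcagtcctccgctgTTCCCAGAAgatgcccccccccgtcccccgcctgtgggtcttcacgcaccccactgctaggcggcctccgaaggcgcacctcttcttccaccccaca
Psmb9: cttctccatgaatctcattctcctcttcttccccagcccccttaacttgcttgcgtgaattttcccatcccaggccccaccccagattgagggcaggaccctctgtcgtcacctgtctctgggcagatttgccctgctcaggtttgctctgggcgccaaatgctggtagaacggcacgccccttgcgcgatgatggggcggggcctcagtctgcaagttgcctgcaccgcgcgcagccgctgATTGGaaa
Psmb5: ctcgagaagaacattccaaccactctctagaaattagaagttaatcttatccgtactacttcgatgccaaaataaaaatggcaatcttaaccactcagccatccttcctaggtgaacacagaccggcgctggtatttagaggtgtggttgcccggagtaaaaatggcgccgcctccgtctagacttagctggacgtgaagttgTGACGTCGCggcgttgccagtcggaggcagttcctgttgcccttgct
Psmb6: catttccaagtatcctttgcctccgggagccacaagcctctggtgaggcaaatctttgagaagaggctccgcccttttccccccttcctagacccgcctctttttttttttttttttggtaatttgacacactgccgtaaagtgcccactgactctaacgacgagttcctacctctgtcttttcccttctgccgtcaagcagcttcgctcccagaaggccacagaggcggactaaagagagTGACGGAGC

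Motifs were searched on both strands from 250 bases before to 50 after each annotated start, in 32851 RefSeq promoters, and 42 of the 50 genes had a promoter there, 5 inducible and 37 other. Members were counted by gene, so the share of the 27025 genes with a match in any promoter is given too. The GAS motif, TTCNNNGAA, occurred in 8.3% of all promoters and 9.55% of all these genes. It occurred in 1 of 5 inducible genes and in 2 of 37 others, Psmd2 and Psmg1. In Psmb8 its site, TTCCCAGAA, began 97 bases before the annotated start. The ISRE core, GAAA followed by any 2 bases and GAAA, to which IRF factors bind, occurred in 3.44% of all promoters and 3.99% of genes. It occurred in 1 of 5 inducible genes and in 4 of 37 others, Psmb3, Psmd4, Psmd9 and Psmg4. Its site in the inducible gene Psme1, read on the plus strand as TTTCGCTTTC, began 9 bases after the annotated start. GAS and ISRE matches can overlap, since both patterns hold GAA.

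The antioxidant response core, TGACNNNGC, occurred in 12.4% of all promoters and 14.0% of genes. It occurred in 0 of 5 inducible genes and in 6 of 37 others, namely Psmb5, Psmb6, Psmc6, Psmd9, Psmd12 and Psme4. The NF-kB pattern, GGG followed by any 5 bases and CC, was found in 50.8% of all promoters and 53.5% of genes. It was found in 3 of 5 inducible genes and in 21 of 37 others. CCAAT was found in 37.4% of all promoters and 41.1% of genes, in 1 of 5 inducible genes and in 15 of 37 others. These matches describe the letters of each window and no binding was measured. In RefSeq's gene order on chromosome 17, Psmb9 stands next to Tap1, followed by Psmb8 and Tap2, so that inducible subunits alternate with the genes of the peptide transporter. Psmb9 and Tap1 are read from opposite strands, and their promoter windows share 275 bases. Psme1 and Psme2 lie on chromosome 14 with Emc9 between them, and Psmb10 lies on chromosome 8.

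RNA integrity numbers were 7.7 to 9.1 over the samples, and the array medians lay between 6.89 and 6.93. Replicate arrays correlated across the 19938 genes with r = 0.9967 in intact skin, 0.9891 on day 1 and 0.9861 on day 4, where genes are not independent replicates. The skin label was borne out by the keratin Krt14 of basal keratinocytes, at 11.94 and 12.03 in intact skin. Replicates within a wound group differed most in hair matrix and inner root sheath markers: their summed linear intensity was 47092 and 47832 in intact skin, 8353 in replicate 1 and 991 in replicate 2 of day 1, and 20655 in replicate 1 and 1282 in replicate 2 of day 4.

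On day 1 the 5 inducible genes rose together, by 0.425 to 1.185 on the log2 scale, while most of the other subunits stayed close to their level in intact skin. By limma with Benjamini-Hochberg adjustment over all genes at a threshold of 0.05, 7 of the 50 genes were higher on day 1 than in intact skin and 1 was lower, while 14.7% of all genes measured were called higher and 14.6% lower. All 5 inducible genes were among the 7, with a median change of 0.665, against a median of −0.04 over all genes. Of the other 45, Psmd10 and Psmg2 were higher and Psmc5 was lower. For both day 1 arrays above both intact arrays the count was 5 of the 5 and 7 of the 45, where 29% of all genes did so. The median change of the 45 was −0.08, and 39 of them changed by less than 0.25 in either direction, as did 12334 of all 19938 genes. On day 1, without intact replicate 1, 4 of the 50 genes were called higher, the inducible genes other than Psme1, and without intact replicate 2 none was called lower. Lower calls on day 1 numbered 2 without day 1 replicate 2, 3 with quantile normalization and 2 with cyclic loess.

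On day 4, 6 of the 50 genes were higher than in intact skin and 3 were lower, while 14.8% of all genes were called higher and 12.1% lower. Of the 5 inducible genes, 4 were higher, with a median change of 0.83 over all 5, against −0.03 over all genes. Of the other 45, Psmd10 and Psma1 were higher, and Psmc5, Psme3 and Psme3ip1 were lower. Both day 4 arrays lay above both intact arrays in 5 of the 5 and in 5 of the 45, where 30% of all genes did so. The median change of the 45 was −0.105, and 38 of the 45 lay within 0.25 of no change, as did 12443 of all 19938 genes. Each of the 3 lower calls was lost without either day 4 array and without either intact array. With an array left out, the change stayed within −0.335 to −0.265 for Psmc5, −0.33 to −0.28 for Psme3 and −0.295 to −0.245 for Psme3ip1. Why the calls were lost was not tested. Between scalings the count of lower calls on day 4 moved to 6 with quantile normalization or cyclic loess. Both comparisons use the same intact arrays, so the values of the days are given side by side and are not independent of each other.

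**Figure D1:**
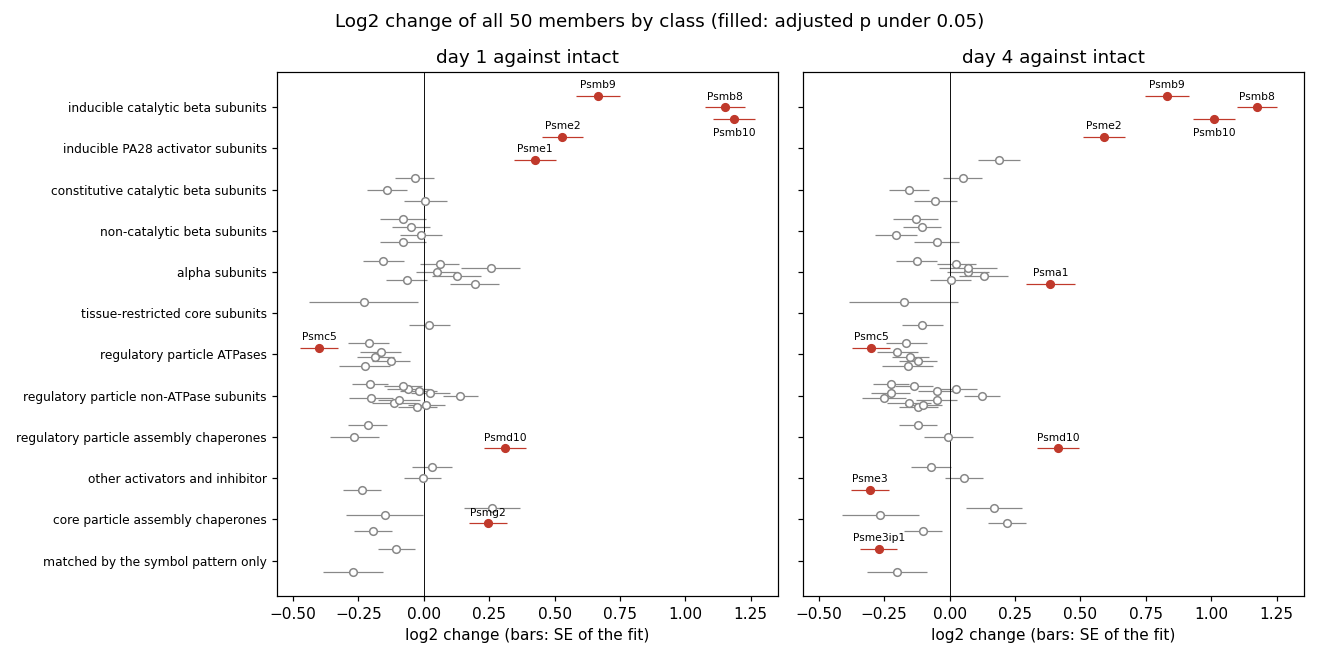
Log2 change of each of the 50 genes on day 1 (left) and day 4 (right) against intact skin, one row of points per class of subunit, with bars for the standard error of the limma fit and filled points for adjusted p under 0.05 (2 arrays a group). The inducible catalytic subunits stand at 0.665 to 1.185 on day 1 and 0.83 to 1.175 on day 4, to the right of every other class, and the regulatory particle ATPases all lie left of zero.

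Psmb8, which replaces Psmb5, had log2 intensities of 7.58 and 7.59 in intact skin, 8.70 and 8.77 on day 1, and 8.81 and 8.71 on day 4. All wound arrays lay above both intact arrays, and the wound days overlapped. Its rise was 1.15 on day 1 (SE 0.076, 2.22-fold, adjusted p = 2.11e-04, n = 2 arrays a group) and 1.175 on day 4 (2.26-fold, adjusted p = 3.31e-04).

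Psmb10, which replaces Psmb7, had 7.90 and 8.02 in intact skin, 9.14 and 9.15 on day 1, and 8.92 and 9.02 on day 4. The day 1 arrays were the highest and the intact arrays the lowest, with no overlap between any of the groups. The change against intact skin was 1.185 on day 1 (SE 0.081, 2.27-fold, adjusted p = 2.39e-04) and 1.01 on day 4 (2.01-fold, adjusted p = 6.23e-04).

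Psmb9, which replaces Psmb6, had 7.91 and 7.77 in intact skin, 8.56 and 8.45 on day 1, and 8.65 and 8.69 on day 4. The groups did not overlap here either, but in this gene the day 4 arrays were the highest. It rose by 0.665 on day 1 (SE 0.085, 1.59-fold, adjusted p = 0.00217) and by 0.83 on day 4 (1.78-fold, adjusted p = 0.00135). Among all genes measured, 3.92% had a larger rise than Psmb8 on day 1, 3.69% a larger rise than Psmb10 and 8.03% a larger rise than Psmb9. On day 4 these shares were 2.83%, 3.68% and 5.05%. The calls of Psmb8, Psmb9 and Psmb10 held on both days in each of 15 alternatives, in which the rise of Psmb8 on day 1 ranged from 1.115 to 1.185, that of Psmb10 from 1.125 to 1.245 and that of Psmb9 from 0.595 to 0.735.

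The PA28 subunits had smaller measured rises than the catalytic ones, a difference that was not tested. Psme2, the beta subunit of PA28, had 10.03 and 10.14 in intact skin, 10.58 and 10.65 on day 1, and 10.71 and 10.64 on day 4, so that all wound arrays lay above the intact ones. Its change was 0.53 on day 1 (SE 0.080, 1.44-fold, adjusted p = 0.00394) and 0.59 on day 4 (1.51-fold, adjusted p = 0.00336). Psme2 has a near-identical copy, Psme2b, whose transcripts its probes may also detect, so its values are uncertain to that extent.

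Psme1, the alpha subunit, had 9.32 and 9.38 in intact skin, 9.83 and 9.72 on day 1, and 9.50 and 9.58 on day 4. Day 1 was highest, day 4 lay between, and no groups overlapped. The day 1 rise of 0.425 passed (SE 0.080, 1.34-fold, adjusted p = 0.0092), but not without intact replicate 1 (adjusted p = 0.0659). On day 4 the change was 0.19 (1.14-fold, adjusted p = 0.129), with a 95% interval from −0.002 to 0.38. On day 1, 10.0% of all genes had a larger rise than Psme2 and 12.2% a larger rise than Psme1.

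**Figure D2:**
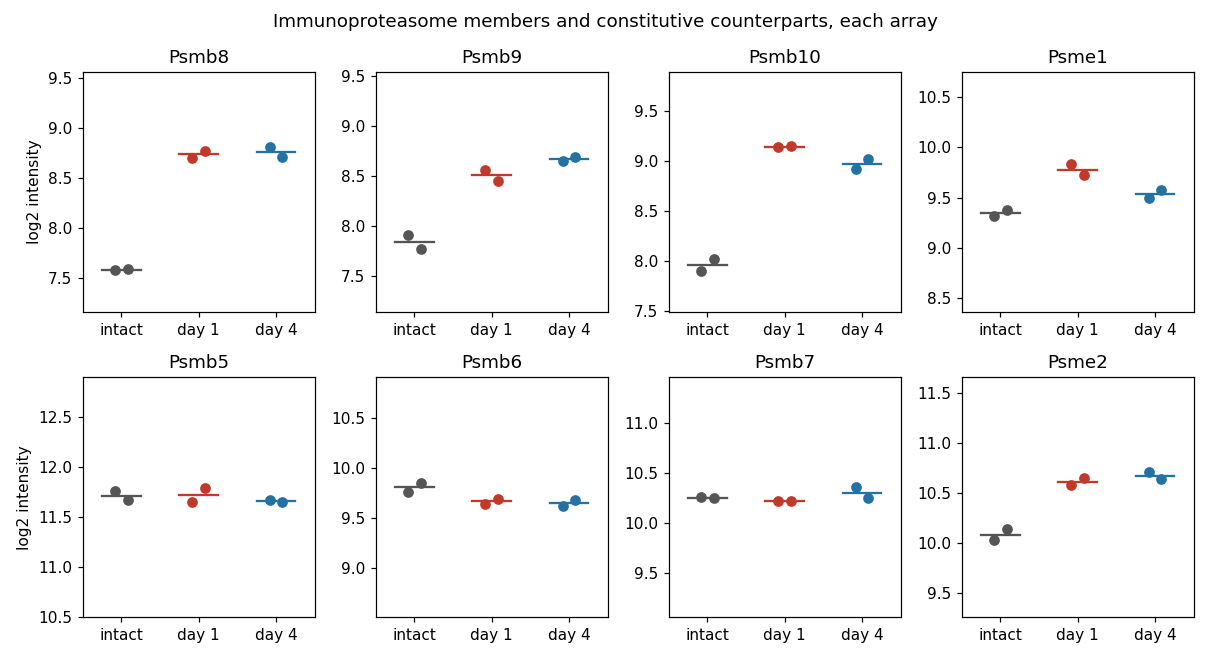
Log2 intensity on each array (points) and group mean (lines) in intact skin, on day 1 and on day 4, for the 5 inducible genes and for Psmb5, Psmb6 and Psmb7, each below the subunit that replaces it; every panel spans the same number of log2 units. Points of all 5 inducible genes lie above the intact points on both wound days, while those of Psmb5 mix.

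None of the constitutive catalytic subunits passed the test on either day. Psmb5 had 11.76 and 11.67 in intact skin, 11.65 and 11.79 on day 1, and 11.67 and 11.65 on day 4, with groups that overlapped on day 1 and met at 11.67 on day 4. Its change was 0.005 on day 1 (95% interval −0.19 to 0.20) and −0.055 on day 4 (−0.25 to 0.14). The sign on day 1 turned with cyclic loess, to −0.017, and with single arrays left out.

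Psmb6 had 9.76 and 9.85 in intact skin, 9.64 and 9.69 on day 1, and 9.62 and 9.68 on day 4. Its wound arrays lay below the intact ones, by −0.14 on day 1 (95% interval −0.32 to 0.04) and −0.155 on day 4 (−0.34 to 0.03). Psmb7 had 10.26 and 10.25 in intact skin, 10.22 and 10.22 on day 1, and 10.36 and 10.25 on day 4, a change of −0.035 (−0.21 to 0.14) and 0.05 (−0.13 to 0.23). These intervals leave room for small changes in either direction, and each ends below the measured rise of the subunit that takes its place.

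Because each inducible subunit competes with its counterpart for a position in the particle, the ratio of the transcripts was formed within each array and centred on its mean in intact skin. The log2 ratio of Psmb8 to Psmb5 was −0.05 and 0.05 in intact skin, 1.18 and 1.11 on day 1, and 1.27 and 1.19 on day 4, an increase of 2.21-fold and 2.35-fold. For Psmb9 to Psmb6 it was 0.115 and −0.115, then 0.885 and 0.725, then 0.995 and 0.975, an increase of 1.75-fold and 1.98-fold. For Psmb10 to Psmb7 it was −0.065 and 0.065, then 1.215 and 1.225, then 0.855 and 1.065, an increase of 2.33-fold and 1.95-fold. Every wound array lay above both intact arrays in each of the 3 ratios. The exact permutation test (two-sided) gave p = 0.333 for each ratio on each day, the smallest value that the 6 ways of splitting 2 arrays against 2 allow. The ratio compares change within an array and not the amounts of the transcripts or proteins.

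**Figure D3:**
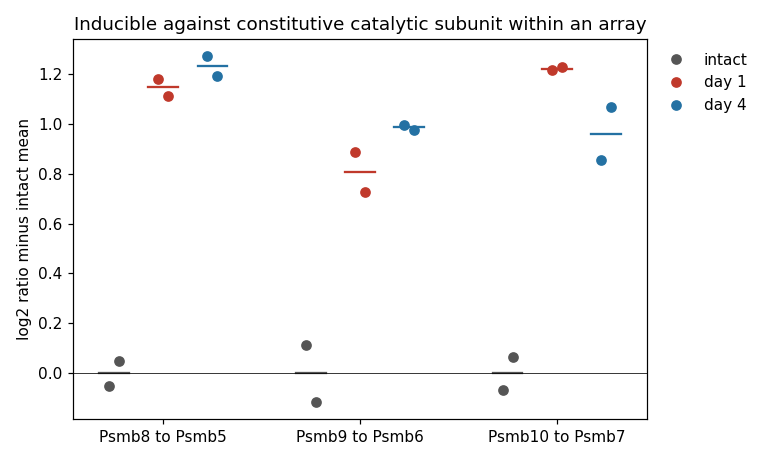
Log2 ratio of each inducible catalytic subunit to its constitutive counterpart on each array, minus the mean ratio in intact skin; points are arrays, lines are group means and colours are the groups. Intact arrays lie within 0.115 of zero, and wound arrays lie between 0.725 and 1.27.

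In the rest of the core particle a single subunit passed, on day 4. None of the 14 constitutive core subunits, the catalytic ones included, passed by limma on day 1. None had an unadjusted p under 0.05, where 8113 of all 19938 genes did. Among the 7 alpha subunits, which form the outer rings and the gate, the change on day 1 ran from −0.155 for Psma7 to 0.255 for Psma5, with a median of 0.06. On day 4 it ran from −0.125 for Psma7 to 0.385 for Psma1, with a median of 0.07.

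Psma1 was the only core subunit outside the immunoproteasome to pass, on day 4. It had 10.23 and 10.25 in intact skin, 10.45 and 10.42 on day 1, and 10.74 and 10.51 on day 4, without overlap between groups and with the widest gap between the day 4 arrays. The day 4 change was 0.385 (SE 0.094, 1.31-fold, adjusted p = 0.0271) and the day 1 change 0.195 (adjusted p = 0.173). Its day 4 call was lost without day 4 replicate 1, without intact replicate 1 or without intact replicate 2 (highest adjusted p = 0.130). The 4 beta subunits without active sites, Psmb1 to Psmb4, changed by −0.08 to −0.01 on day 1 and by −0.205 (Psmb2) to −0.05 on day 4, with 0 calls.

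In the regulatory particle most measured changes were downwards, and 1 of its 17 subunits passed on each day. The 6 ATPases, Psmc1 to Psmc6, form the ring that unfolds substrates. By the brightest probe set of each, all 6 were below both intact arrays on each wound array. Of all genes, 38.2% had such lower, non-overlapping groups on day 1 and 36% on day 4. Changes of the 6 ATPases ran from −0.4 (Psmc5) to −0.125 (Psmc2) on day 1. On day 4 they ran from −0.3 (Psmc5) to −0.12 (Psmc2). Their median was −0.1975 on day 1 and −0.1625 on day 4, and the sign of all 6 was kept under quantile normalization, cyclic loess and median centring. A dimmer probe set of Psmc1 had 9.43 and 9.43 in intact skin and 9.43 and 9.34 on day 4, a change of −0.045. Its day 1 change was −0.165. Psmc5 alone passed: it had 8.93 and 9.0 in intact skin, 8.55 and 8.58 on day 1, and 8.69 and 8.64 on day 4.

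The change of Psmc5 was −0.4 on day 1 (SE 0.073, adjusted p = 0.00816) and −0.3 on day 4 (adjusted p = 0.0263). The day 1 call was lost without intact replicate 2 (adjusted p = 0.0573), and the day 4 call without either day 4 array or either intact array (highest adjusted p = 0.125). Of the 11 non-ATPase subunits, which include the ubiquitin receptor Psmd4 and the deubiquitinase Psmd14, none passed on either day. An unadjusted p under 0.05 was reached by 1 on day 1 and 3 on day 4, beside 8113 and 7901 of all 19938 genes. With quantile normalization or cyclic loess 3 of the 11 were called lower on day 4, which made 4 of the 17 regulatory particle subunits, and with quantile normalization 1 of the 11 was called lower on day 1. The 11 ranged from −0.205 for Psmd8 to 0.14 for Psmd2, a scaffold subunit, on day 1, and from −0.25 for Psmd14 to 0.125 for Psmd2 on day 4. Taken as 17 genes, the regulatory particle had 12 with both day 1 arrays below both intact arrays, where 38.2% of all genes had such lower, non-overlapping groups, and 14 on day 4, against 36% of all genes.

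Among the chaperones that assemble the regulatory particle, Psmd10, also known as gankyrin, rose on both days. It had 8.68 and 8.79 in intact skin, 9.0 and 9.09 on day 1, and 9.12 and 9.18 on day 4, with no overlap. The change was 0.31 on day 1 (SE 0.080, 1.24-fold, adjusted p = 0.0303) and 0.415 on day 4 (1.33-fold, adjusted p = 0.0124). The day 1 call was lost without either day 1 array or either intact array (highest adjusted p = 0.159), and the day 4 call without day 4 replicate 2 or without intact replicate 1 (highest adjusted p = 0.0848). The other chaperones of this group, Psmd5 and Psmd9, did not pass, with −0.265 (adjusted p = 0.0817) and −0.215 (adjusted p = 0.0723) on day 1 and −0.005 and −0.12 on day 4.

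The chaperones of the core particle, Psmg1 to Psmg4, went in both directions. Psmg2 had 9.0 and 9.04 in intact skin, 9.24 and 9.29 on day 1, and 9.20 and 9.28 on day 4, with all wound arrays above the intact ones. It passed narrowly on day 1, with a change of 0.245 (SE 0.074, adjusted p = 0.0495), and not on day 4 (0.22, adjusted p = 0.0721). The day 1 call was lost with any of the 6 arrays left out (highest adjusted p = 0.195). Psmg1 changed by −0.195 on day 1 and −0.10 on day 4, Psmg3 by −0.15 and −0.265, and Psmg4 by 0.26 and 0.17, and none of these passed.

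Psme3, the nuclear activator PA28 gamma, which is not among the interferon-induced forms, was lower on day 4. It had 10.33 and 10.28 in intact skin, 10.03 and 10.11 on day 1, and 10.01 and 9.99 on day 4, with every wound array below the intact ones. The change was −0.305 on day 4 (SE 0.073, adjusted p = 0.0255) and −0.235 on day 1 (adjusted p = 0.0550). The day 4 call was lost without either day 4 array or either intact array (highest adjusted p = 0.132). Psme4, the large activator PA200, changed by −0.005 on day 1 and 0.055 on day 4, and the inhibitor Psmf1 by 0.03 and −0.07, with no call.

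The tissue-restricted core subunits were dim. Psma8, an alpha subunit of the testis, had 4.55 and 4.57 in intact skin, 4.64 and 4.52 on day 1, and 4.42 and 4.49 on day 4, under the lower quartile of every array (5.29 to 5.37). Psmb11, the catalytic subunit of the thymus, had 6.33 and 5.72 in intact skin, 5.93 and 5.66 on day 1, and 5.96 and 5.74 on day 4, with groups that overlapped. Neither gene passed on either day. Psme3ip1, a partner of Psme3, had 9.09 and 9.12 in intact skin, 8.98 and 9.02 on day 1, and 8.81 and 8.86 on day 4. Its change of −0.27 on day 4 passed (SE 0.071, adjusted p = 0.0339) but not with any of the 6 arrays left out (highest adjusted p = 0.136). Psmc3ip, a recombination factor also called HOP2, had 6.58 and 6.68 in intact skin, 6.43 and 6.29 on day 1, and 6.29 and 6.57 on day 4. It lay below intact skin by −0.27 on day 1 (adjusted p = 0.129) and by −0.20 on day 4, without a call.

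**Figure D4:**
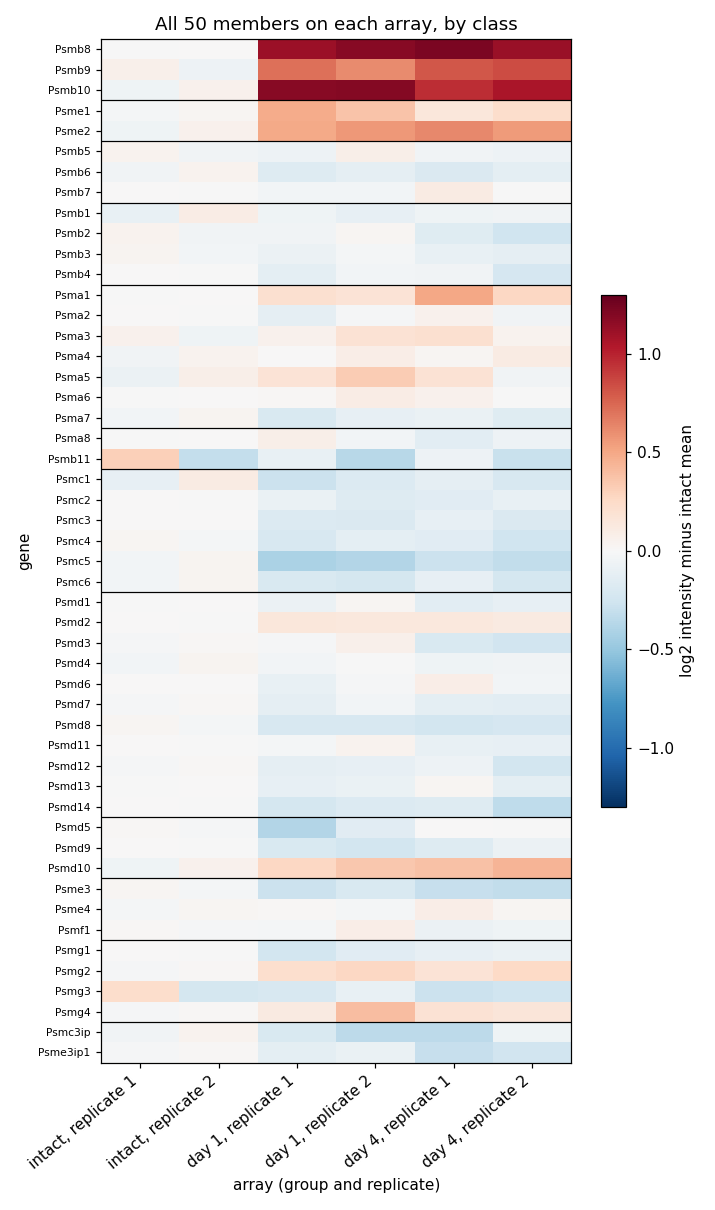
Log2 intensity of each of the 50 genes on each of the 6 arrays, minus the gene's mean in intact skin, with colour from blue (lower) to red (higher) and black lines between classes. The inducible genes at the top are red on all wound arrays, with medians over these 5 genes of 0.72 and 0.61 on day 1 and 0.81 and 0.85 on day 4, while the medians of the other 45 lie between −0.095 and −0.04.

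No member of the family passed between day 4 and day 1 by limma, where 1.09% of all genes were called higher and 1.14% lower. An unadjusted p under 0.05 was reached by 4 of the 50, where 3765 of all 19938 genes reached it. The 4 members changed by −0.25 (Psmd3), −0.235 (Psme1), −0.195 (Psmb2) and 0.26 (Psmd5), and the lowest adjusted p was 0.147. Both day 4 arrays lay above both day 1 arrays in 9 of the 50 and below them in 15, where 25.6% of all genes lay above and 22% below. The difference between the days was 0.025 for Psmb8 (95% interval −0.16 to 0.21), 0.165 for Psmb9 (−0.04 to 0.37) and −0.175 for Psmb10 (−0.37 to 0.02). For Psme1 it was −0.235 (−0.43 to −0.04, adjusted p = 0.185). The sign of the Psmb8 difference turned to −0.0075 with cyclic loess and to −0.005 with median centring. With 2 arrays a group, intervals of this width do not show that the days were alike.

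Most of the measured genes that act beside the immunoproteasome in class I presentation were higher on both wound days. Of 14 genes of class I antigen processing listed, 11 were measured. Of these, 7 were higher on day 1, 7 on day 4 and none lower, with medians of 0.375 and 0.33. The shares of all genes called were 14.7% higher and 14.6% lower on day 1, and 14.8% and 12.1% on day 4. The peptide transporter gene Tap1, the neighbour of Psmb9, had 8.86 and 8.89 in intact skin, 10.05 and 9.94 on day 1, and 9.76 and 9.77 on day 4. It rose by 1.12 on day 1 (2.17-fold, adjusted p = 2.25e-04) and by 0.89 on day 4 (1.85-fold, adjusted p = 7.14e-04). Its partner Tap2, named here after its values were seen, rose by 0.57 (adjusted p = 0.006) and 0.585 (adjusted p = 0.00676).

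Nlrc5, the transactivator of class I genes, rose by 1.015 on day 1 (2.02-fold, adjusted p = 7.54e-04) and by 0.72 on day 4 (adjusted p = 0.00333). Tapbp, which encodes the loading chaperone tapasin, rose by 0.845 and 0.755, and Erap1, a peptidase that trims peptides in the endoplasmic reticulum, by 0.75 and 0.81. The chaperones Calr, Canx, Pdia3 and Hspa5 made up the 4 genes of the list that passed on neither day. H2-K1, H2-D1 and H2-T23 were not analysed here.

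Most genes of the interferon pathway, from receptors and kinases to the STAT and IRF factors, were also higher. Of 16 such genes listed, 15 were measured. Of these, 13 were higher on day 1 and 12 on day 4, with medians of 1.115 and 0.87 and none lower. Beside them, 14.7% of all genes were called higher and 14.6% lower on day 1, and 14.8% and 12.1% on day 4. Irf1, an activator of Psmb8, Psmb9 and Tap1 in interferon-treated cells, had 7.55 and 7.64 in intact skin, 9.10 and 9.15 on day 1, and 8.80 and 8.96 on day 4. Its rise was 1.53 on day 1 (2.89-fold, adjusted p = 1.24e-04) and 1.285 on day 4 (2.44-fold, adjusted p = 3.51e-04). Stat2 rose by 1.905 (3.75-fold) and 1.465, Irf7 by 2.715 (6.57-fold) and 1.97, and Irf8, a factor of myeloid cells, by 1.43 and 1.755. Ifng itself, chosen after its values were seen, had 6.42 and 6.11 in intact skin, 6.34 and 6.03 on day 1, and 6.16 and 6.17 on day 4, with changes of −0.08 (adjusted p = 0.710) and −0.10 (adjusted p = 0.639).

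Genes that feed substrates to the proteasome were called in both directions. Of 13 ubiquitin genes and enzymes listed, 8 were measured, with 1 higher and 1 lower on each day, beside 14.7% of all genes higher and 14.6% lower on day 1 and 14.8% and 12.1% on day 4. The higher one was Ube2l6, the conjugating enzyme for the interferon-induced modifier Isg15, with 1.62 on day 1 (3.07-fold) and 1.155 on day 4, and the lower one was Ube2r2, with −0.405 on day 1 (adjusted p = 0.0501 without intact replicate 2) and −0.44 on day 4. Of 19 receptors, shuttles and deubiquitinases that act at the proteasome, 16 were measured, with 0 higher and 1 lower on day 1 and 1 higher and 5 lower on day 4. Akirin2, which brings proteasomes into the nucleus, was lower on both days, by −0.38 (adjusted p = 0.00942) and −0.29 (adjusted p = 0.0282). On day 4 the shuttle factor Rad23b was lower by −0.36, Ubqln4 by −0.31 and the proteasome-binding zinc finger gene Zfand2b by −0.385, while Ubqln2 was higher by 0.395 (adjusted p = 0.03). Each of these 5 day 4 calls was lost without intact replicate 1, where the adjusted p ran from 0.0914 for Zfand2b to 0.156 for Ubqln2, and the day 1 call of Akirin2 was lost without day 1 replicate 2 or intact replicate 1.

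Of 9 genes of assembly and transcriptional control listed, 7 were measured. On day 1, 2 were higher, and on day 4, 1 was, beside 14.7% and 14.8% of all genes. Nfe2l2, also known as NRF2, rose by 0.775 on day 1 (1.71-fold, adjusted p = 7.79e-04) and by 0.51 on day 4 (adjusted p = 0.0045). Nfe2l1, or NRF1, which raises the transcription of constitutive subunits when proteasomes are short, rose by 0.33 on day 1 (adjusted p = 0.0213), a call lost without any of the day 1 or intact arrays (highest adjusted p = 0.119), and changed by 0.24 on day 4 (adjusted p = 0.0648). Pomp, the maturation factor of the core particle, changed by −0.045 and −0.065 (named after its values were seen). Between day 4 and day 1, 0 genes of these 5 lists passed by limma. An unadjusted p under 0.05 was reached by 2 in class I processing, 8 in the interferon list and 2 in the ubiquitin list. It was also reached by 1 among the receptors and shuttles, 1 in assembly and control, and 3765 of all 19938 genes.

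Markers of several kinds of immune cell were higher in the same arrays, and in whole biopsies more cells of a type and more RNA per cell cannot be told apart. Among all genes, 14.7% were called higher and 14.6% lower on day 1, and 14.8% and 12.1% on day 4. Of 12 neutrophil markers 10 were higher on day 1 and 9 on day 4, and their summed linear intensity went from 1051 to 1233 in intact skin to 18343 to 24414 on day 1 and 9353 to 11436 on day 4. S100a9 among them rose 27.2-fold and 19.7-fold. All 10 measured markers of monocytes and macrophages, of 12 listed, were higher on both days, with sums of 3085 to 3882, then 12643 to 14307, then 13052 to 13549, and Csf1r among them rose 2.42-fold and 3.40-fold. Of 11 dendritic and Langerhans cell markers 6 were higher and 1 lower on day 1, and 7 and 1 on day 4. Their sums were 1950 to 1975, then 2287 to 2606, then 2585 to 2925, and Itgax rose 1.68-fold and 2.13-fold. The lower one on both days was Zbtb46, by −0.295 (adjusted p = 0.0228) and −0.36 (adjusted p = 0.0129).

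Of 9 measured T cell markers 3 were higher on each day, beside 14.7% of all genes on day 1 and 14.8% on day 4. The T cell sums were 777 to 835 in intact skin, 1096 to 1150 on day 1 and 1053 to 1171 on day 4. Cd3g rose 2.14-fold and 1.88-fold. Of 8 natural killer cell markers 5 were higher on each day, with sums of 407 to 430, then 657 to 827, then 670 to 736, and Klrk1 rose 2.72-fold on day 1 and 2.09-fold on day 4, the latter lost without intact replicate 1 (adjusted p = 0.0604). None of the 5 measured B cell markers passed by limma on either day. An unadjusted p under 0.05 was reached by 1 on day 1 and 2 on day 4, beside 8113 and 7901 of all 19938 genes. The sums of the B cell markers were 232 to 244, then 217 to 224, then 228 to 252. The defining markers Ms4a1 and Cd79a lay under the lower quartile. The part of these cell types in the rise of the inducible subunits was not tested.

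Markers of resident skin cells were called in both directions. Over all genes, 14.7% were called higher and 14.6% lower on day 1, and 14.8% and 12.1% on day 4. Keratinocyte markers had 5 of 10 higher and 1 lower on each day. The lower one on day 1 was Ivl, by −1.34 (adjusted p = 0.00175). Sums of the keratinocyte markers were 31464 to 32473 in intact skin, 35156 to 37382 on day 1 and 37845 to 39850 on day 4. All 8 endothelial markers were higher on both days, as were 5 and 6 of 8 fibroblast markers and 7 and 5 of 8 skeletal muscle markers. Of 8 adipocyte markers 1 was higher and 2 lower on day 1, and 2 were lower on day 4. Hair matrix and inner root sheath markers had 9 of 12 lower on day 1 and 5 on day 4. The replicates of a wound day differ in the hair signal. Psmb8 was at 8.70 and 8.77 in replicates 1 and 2 of day 1, and at 8.81 and 8.71 in those of day 4. The median of the inducible genes, relative to intact skin, was 0.72 and 0.61 on day 1 and 0.81 and 0.85 on day 4. Whether the hair signal bears on these genes was not tested.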

How the data were processed

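Skin RNA of 6 samples (3 groups of 2) was measured on Affymetrix mouse gene arrays. The authors deposited a log2 intensity for each probe set, produced by RMA per the submitters' processing notes, with 2 decimals; the sources used here give no RMA version. RMA brings arrays to a common distribution, so that a shift of all transcripts would not be seen.

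Of 35556 probe sets, 21789 carried 1 gene symbol in the array annotation, 1621 carried several and 12146 none; the last 2 kinds were left out. The brightest probe set by mean stood for a gene (999 genes had several), which gave 19938 genes. All 50 members had a value and no filter on dim genes was applied. Among the 50, 5 had more than 1 probe set, 56 in all.

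The comparisons used limma 3.58.1 under R 4.3.3 (a mean per group over all 6 arrays, eBayes, 3 residual and 3.4 prior degrees of freedom), two-sided, with Benjamini-Hochberg adjustment over all genes and a threshold of 0.05. The fit was tested on simulated data. Figures and promoter searches used Python 3.11.15. The alternatives were 3 other scalings, 2 other priors, a filter on the dimmest 30% of genes, only the arrays compared, the mean of a gene's probe sets, a replicate block and each array left out.

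The members and the 17 gene lists were chosen with earlier results of these data known. Named were the inducible genes and their counterparts, tissue-restricted members and those taken in by name alone. Also named were up to 5 other members past the threshold each way and the extremes of a class. From each pathway list came up to 4 genes by smallest p, with those that passed against their list. Marker lists are given as counts, with few genes named and not every marker that passed against its list.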

Additional observations from a re-analysis of the deposited data

Results flagged for a closer look

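A probe set outside the gene table, named in the annotation by both Psme2b and Psme2 and so left out of the comparisons, gave a signal above its level in intact skin. It had log2 intensities of 8.49 and 8.55 in intact skin, 9.38 and 9.25 on day 1, and 9.49 and 9.49 on day 4. Fitted with limma over all 35556 probe sets, it rose by 0.795 on day 1 (SE 0.081, adjusted p = 0.00337) and by 0.97 on day 4 (adjusted p = 0.00291). The probe set of Psme2 alone rose in the same fit by 0.53 (adjusted p = 0.0114) and 0.59 (adjusted p = 0.0100). The share of each gene in the common probe set cannot be told from these values.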

How the results depend on the processing

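With 2 arrays a group the number of arrays limits every value. Psmb8, Psmb9, Psmb10 and Psme2 kept direction and call on both days in all 15 alternatives, and Psme1 lost its day 1 call only without intact replicate 1. Over 91 named gene values and 1357 alternative values of them, 1271 kept direction and side of the threshold, 61 lost a call, 4 gained one and 21 changed sign. The cause was not tested for any of the moves given here.

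Members called lower on day 1 numbered 3 with quantile normalization, 2 with cyclic loess, 3 with a mean-variance trend in the prior and 4 without the dimmest 30% of genes, against 1; on day 4 they numbered 6, 6, 5 and 5 under the same settings, against 3. Leaving out each array in turn gave 4 to 6 higher and 0 to 2 lower members on day 1, and 0 to 2 lower on day 4. Over all genes it gave 1773 to 2901 higher and 1376 to 2772 lower on day 1, 1393 to 2760 higher and 853 to 2147 lower on day 4, and 4 to 67 higher and 5 to 117 lower between the days (against 217 and 227). Fitted on the arrays of both wound days alone, that last comparison gave 8 higher and 9 lower genes.

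Sign changes, all in uncalled values: on day 1 Psmb5 was −0.017 and Ifng 0.0069 with cyclic loess; leaving out arrays gave −0.065 to 0.075 for Psmb5, −0.04 to 0.08 for Psma8, −0.535 to 0.075 for Psmb11 and −0.235 to 0.075 for Ifng. On day 4 it gave −0.005 to 0.105 for Psmb7, −0.48 to 0.13 for Psmb11 and −0.255 to 0.055 for Ifng. Between the days Psmb8 was −0.0075 with cyclic loess and −0.005 with median centring, and leaving out arrays gave −0.025 to 0.075 for Psmb8, −0.13 to 0.01 for Psmb5, −0.045 to 0.015 for Psmb6, −0.08 to 0.19 for Psmb11 and −0.07 to 0.21 for Psmc3ip.

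The labels do not say that replicate numbers pair samples. Deviations of same-numbered arrays correlated at 0.0139 (intact and day 1), 0.0227 (intact and day 4) and 0.685 (day 1 and day 4). With the replicate block, 348 genes instead of 227 were lower on day 4 than on day 1, and among the 50 members Psmg2 alone changed its call (day 1 adjusted p = 0.0524).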
